A study of Mus musculus with 6 samples.

Results

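Among the 44678 gene rows of the deposited files, 9 annotated loci were examined that had been listed for standing near 0 in 1 genotype, or for overlapping such a locus. They were Gm20388 with its overlapping host genes Galnt2 and Usp10, Col6a4, Gm13841, Gm43305, Gm8730, Fmnl2 and Trpm2. Apart from the hosts, they were chosen by their measured KO and WT values in these libraries, so their levels are given as a description, with no test. Galnt2 and Usp10 were listed for their position. Usp10 was tested, and Galnt2, which shares most of its exonic sequence with Gm20388, is given without a p. The data went against the description for Gm43305, Fmnl2 and Trpm2, which had at least 109 counts in every library, so they are described here as genes with a lower or a higher level in KO.

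The data are RNA-seq of CD8a+ leukocytes of the spleen from untreated mice, 3 libraries labelled WT and 3 labelled miR-144/451 KO. Per the methods, the KO line is on the C57BL/6J background and lacks a genomic segment with both microRNA precursors, the WT mice were C57BL/6J supplied by a university centre, and mice of the study were 8 to 12 weeks old. The comparison asks what differs in these cells without miR-144 and miR-451. The labels do not say whether each library is 1 animal, so p-values measure the spread between these libraries only.

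MicroRNAs shorten the life of messenger RNAs or block their translation when bases 2 to 8 of the microRNA, the seed, pair with the 3′-UTR of the message. The loci described here are of several kinds. A joined gene model is an annotation that runs the first exon of a gene into the exons of another, and reads that lie in shared exons can be given to either model. A processed pseudogene is a copy of a messenger RNA that was written back into the genome, and where the copy is nearly identical to its parent, few bases tell their reads apart. The loci other than Gm20388 that are annotated as protein-coding are an O-linked glycosyltransferase (Galnt2), a deubiquitinase (Usp10), a collagen VI chain (Col6a4), a formin that nucleates or elongates actin filaments (Fmnl2) and a cation channel gated by ADP-ribose (Trpm2).

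The sequences that separate these loci are few. In GENCODE M21 on GRCm38, Gm20388 (ENSMUSG00000092329) has 1 transcript of 16 exons on the plus strand at chr8:119910841-124345722. Its exon 1 of 99 bp lies in Usp10, and exons 2 to 16, with 3854 of its 3953 exonic bases (97.5%), lie in Galnt2, whose start is 4.27 Mb beyond the end of Usp10. Of its 3923 words of 31 bases, 28 occur in no other annotated gene. Each of these 28 words crosses the junction of exons 1 and 2, which is shown with those of its hosts, 15 coding bases of exon 1 in lower case and 15 of exon 2 in capitals:
Gm20388: ctccacaacccacagGGTGACTGGAATGAC
Galnt2: ggcgccggcaggaagGGTGACTGGAATGAC
Usp10: ctccacaacccacagTATATCTTTGGCGAT
The left side of Gm20388 is chr8:119910925-119910939 and is shared with Usp10, and its right side is chr8:124295358-124295372 and is shared with Galnt2.

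Gm13841 (ENSMUSG00000083833) is a processed pseudogene of 483 bp on the minus strand at chr5:115801677-115802159. It aligned without gaps to the coding sequence of Rpl29, a protein of the large ribosomal subunit, with 3 substitutions (99.4% identity). They are shown for the parent and the copy, with the differing base in capitals and positions counted from 1 at the first coding base of Rpl29:
Rpl29, positions 58 to 86, C72A: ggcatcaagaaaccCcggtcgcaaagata
Gm13841, chr5:115802074-115802102: ggcatcaagaaaccAcggtcgcaaagata
Rpl29, positions 286 to 314, C300T: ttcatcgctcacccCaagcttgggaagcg
Gm13841, chr5:115801846-115801874: ttcatcgctcacccTaagcttgggaagcg
Rpl29, positions 409 to 437, T423C: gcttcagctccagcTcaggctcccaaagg
Gm13841, chr5:115801723-115801751: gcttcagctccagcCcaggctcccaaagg
None of the 453 words of 31 bases in Gm13841 was particular to it, since all of them occur in Gm8210, a further copy on chromosome 1 that was not analysed here, and 360 of them (79.5%) occur in Rpl29.

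Gm8730 (ENSMUSG00000063696) is a processed pseudogene of 954 bp on the minus strand at chr8:102864845-102865798. It aligned without gaps to the coding sequence of Rplp0, the scaffold of the ribosomal stalk, with 12 substitutions (98.7% identity). The stretch of 30 bases that holds the most of them is shown, with the differing bases in capitals:
Rplp0, positions 364 to 393, A390G and A393G: actgtgccagctcagaacactggtctAggA
Gm8730, chr8:102865406-102865435: actgtgccagctcagaacactggtctGggG
Of its 924 words of 31 bases, 108 occur in no other gene and 580 (62.8%) occur in Rplp0.

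The other loci are mostly sequence of their own. Fmnl2 (ENSMUSG00000036053, plus strand, chr2:52857860-53133804) shared none of its 5747 words with another gene. Col6a4 (ENSMUSG00000032572, minus strand, chr9:105989454-106096783) had 8330 of 8523 words of its own, and Trpm2 (ENSMUSG00000009292, minus strand, chr10:77907722-77970563) had 12248 of 12461. Gm43305 (ENSMUSG00000105703, minus strand, chr14:54292443-54297456), a noncoding model with 2 transcripts, had 3853 of 4997, and it lies 0.0682 Mb beyond Trac, the constant region of the T cell receptor alpha chain.

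The deposited values have the form of expected counts, which need not be whole, and how reads that fit several genes were counted is not given in the sources used here. Library totals lay between 8143971 and 8876570, and CPM is the count per 1000000 of that total. At this depth 3 counts, the floor used here, are 0.338 to 0.368 CPM, a limit that covers counting error only. Mir144 and Mir451a had 0 counts in all 6 libraries, so the deletion could not be checked. Markers of CD8 T cells summed to 1360 to 2790 CPM and no marker of that list was at 0, while B cell, monocyte and neutrophil markers were also present, and their sums overlapped between genotypes. In bulk samples, fewer cells of a type and less RNA per cell cannot be told apart.

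A row was counted as on or off when it had at most 3 counts in each library of 1 genotype and at least 10 in each library of the other. Of all 44678 rows, 2 were off in KO (0.00448%) and 4 were off in WT (0.00895%). Of the 9 loci, 4 met this: Gm20388 was off in KO, and Col6a4, Gm13841 and Gm8730 were off in WT. The limits were set with these values known, so the counts describe the choice. Closest to the limit was Gm8730, with 10.016 counts in KO replicate 2. By the highest library of the lower genotype, the nearest locus outside it was Fmnl2, with 150 counts in WT replicate 1. Gm43305 had 430 counts in KO replicate 1. The rows outside the list with the pattern were 1700021A07Rik, a noncoding RNA (WT counts 12, 14 and 12, KO counts 2, 3 and 0), and Ppargc1a, a coactivator of mitochondrial gene expression (WT counts 1, 3 and 1, KO counts 15, 13 and 11).

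**Figure D1:**
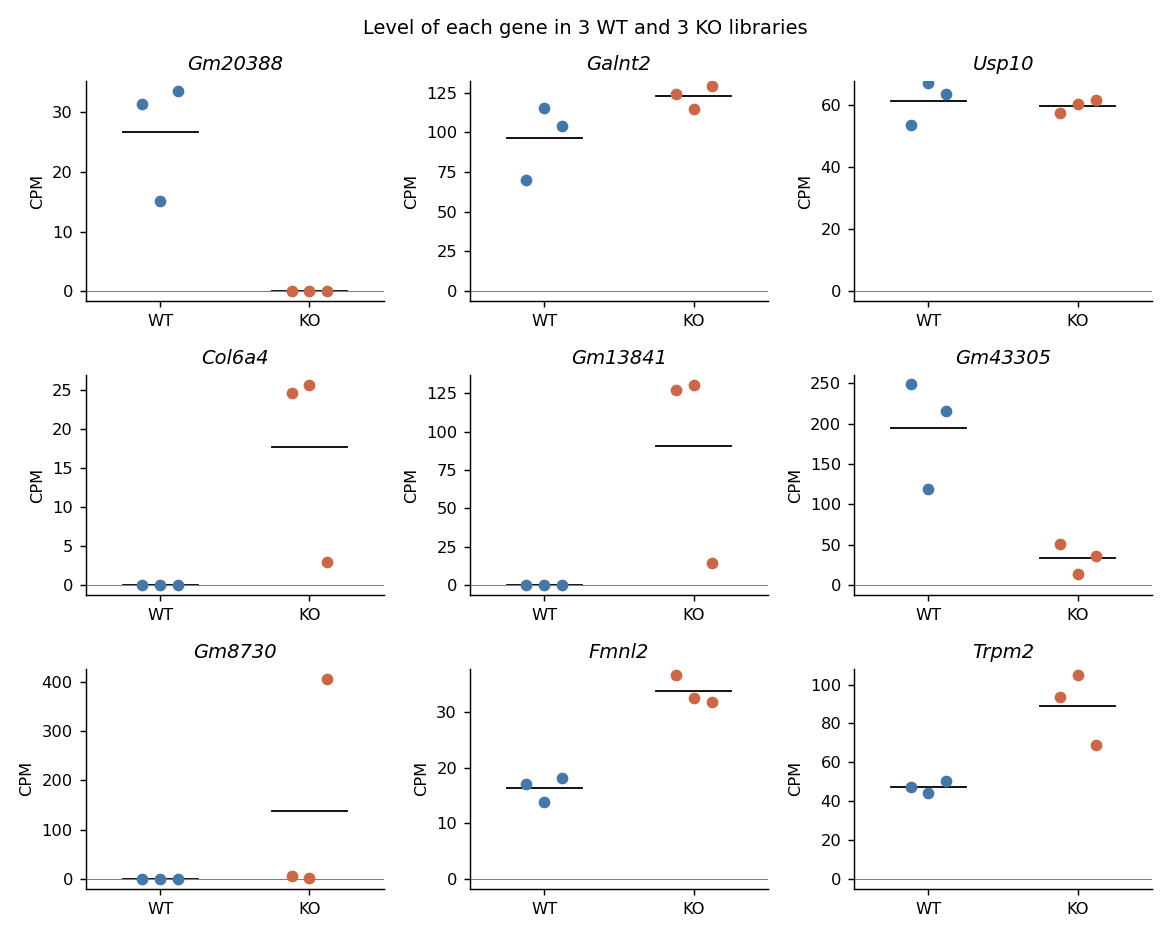
CPM of the 9 loci, with 1 point per library (blue WT, orange KO) and a black line at the mean of 3 libraries, each panel on its own linear axis. Gm20388 is at 0 in KO, Col6a4 and Gm13841 are at 0 in WT, a single KO library lifts Gm8730, and Gm43305, Fmnl2 and Trpm2 are above 0 in all 6 libraries.

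Gm20388 was present in WT and at 0 in KO, while its host genes were present in both. It had 276.852, 134.724 and 273.579 counts in WT replicates 1 to 3 and 0 in each KO library. The WT levels were 31.5, 15.2 and 33.6 CPM, so the genotypes did not overlap, and WT replicate 2 had the lowest WT value. Against a floor of 3 counts per KO library, its mean was at least 75.9-fold higher in WT, and at least 43.1-fold higher for WT replicate 2 alone.

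Galnt2 (ENSMUSG00000089704, plus strand, chr8:124231391-124345724), which starts O-linked glycosylation in the Golgi by adding GalNAc to serine or threonine, was present in all libraries. Its levels were 69.6, 115 and 104 CPM in WT and 124, 114 and 129 CPM in KO, with means of 96.3 ± 23.7 (SD, n = 3) and 123 ± 7.55 (SD, n = 3). The ranges overlapped, with WT replicate 1 well below the other libraries. Its log2 fold change in KO was 0.33 (SE 0.17), given with no p because 90.0% of its exonic bases also lie in Gm20388, which was chosen on this contrast.

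Galnt2 and Gm20388 were also added up, because they share most of their exons. In WT the values of each were fractions, and their sums were 889, 1156 and 1121.14 counts against 1060, 942 and 1137 in KO, where Gm20388 was at 0. In WT the sum was a whole number within 0.0015 in 2 of 3 libraries. Gm20388 made up 31.1%, 11.7% and 24.4% of it in WT replicates 1 to 3.

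Taken as 1 locus, the pair had a WT level of 123 ± 19.3 CPM (SD, n = 3) and a KO level of 123 ± 7.55 CPM (SD, n = 3). The summed log2 fold change was −0.02 (SE 0.13), given with no p because the sum holds a locus chosen on this contrast. The direction of this sum changed between libraries left out, from −0.15 without WT replicate 1 to 0.050 without WT replicate 3.

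**Figure D2:**
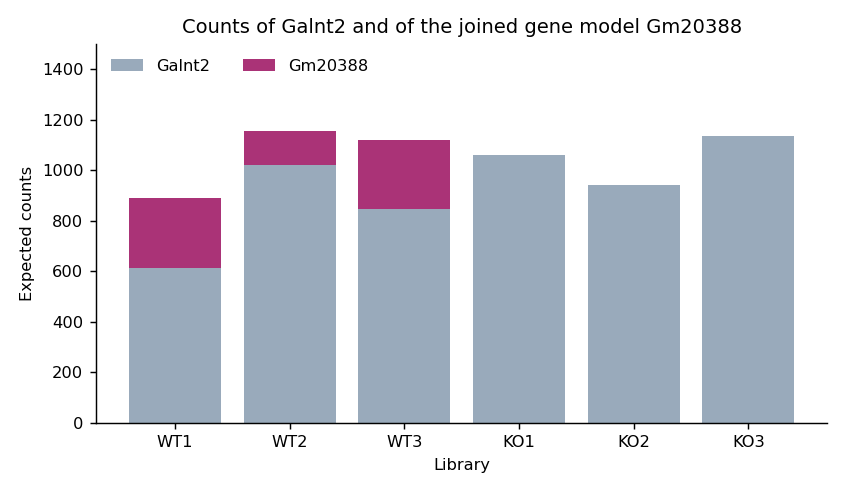
Expected counts of Galnt2 (grey) and Gm20388 (purple), stacked for each library on a linear axis from 0. The stacked totals, 889 to 1156 in WT and 942 to 1137 in KO, overlap, and the purple part is present in the 3 WT libraries and is 0 in the 3 KO libraries.

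Usp10 (ENSMUSG00000031826, plus strand, chr8:119910360-119957560), which removes ubiquitin from p53 and other proteins and binds the stress granule protein G3BP1, differed little between genotypes. Its levels were 53.7, 67.1 and 63.5 CPM in WT and 57.4, 60.3 and 61.5 CPM in KO. The KO values lay inside the WT range. Its log2 fold change was −0.06 (SE 0.11), and it did not pass 0.05 in the fit across 13024 genes (edgeR quasi-likelihood, Benjamini-Hochberg adjusted p = 0.926). In the same fit 4 genes, or 0.0307% of those tested, passed. When Usp10 was added to the sum of Gm20388 and Galnt2, the log2 fold change was −0.04 (SE 0.12).

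Col6a4, a chain of the microfibril-forming collagen VI, was at 0 in all WT libraries and present in all KO libraries. It had 210, 211 and 26 counts in KO replicates 1 to 3, or 24.6, 25.6 and 2.96 CPM. KO replicates 1 and 2 stood together and KO replicate 3 was the lowest of the genotype, with the highest value 8.67 times the lowest. The KO mean was at least 50.8-fold higher than the WT floor, and KO replicate 3 alone at least 8.47-fold higher.

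The other collagen VI chains were nearly absent. Col6a1, Col6a2, Col6a3, Col6a5 and Col6a6 had between 0 and 4 counts per library, too few to be tested. Markers of fibroblasts, which make collagen VI in most tissues, summed to 0.676 to 2.33 CPM in WT and 0.486 to 1.02 CPM in KO, with 1 of 5 markers below its WT range in KO and none above.

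Gm13841, the Rpl29 copy, had the same order of libraries in CPM as Col6a4 although it lies on another chromosome. It was at 0 counts in every WT library and had 1086, 1074 and 128 counts in KO replicates 1 to 3, or 127, 130 and 14.6 CPM. Again KO replicates 1 and 2 were alike and KO replicate 3 was low. The KO mean was at least 260-fold higher than the WT floor, and KO replicate 3 alone at least 41.7-fold higher. In counts, Gm13841 was 5.17, 5.09 and 4.93 times Col6a4 in KO replicates 1 to 3. These ratios come from 3 libraries, are not per length, and are a description.

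Rpl29, the parent of Gm13841, lies 0.333 Mb from Col6a4 on chromosome 9. It had 786, 841 and 666 CPM in WT and 392, 343 and 740 CPM in KO. KO replicate 3 lay inside the WT range and KO replicates 1 and 2 lay below it. Its log2 fold change was −0.65 (SE 0.28). No p is given, because 79.5% of the words of Gm13841, which was chosen on this contrast, occur in Rpl29. Uimc1, which holds on the opposite strand most of the words of Gm13841, had 398, 514 and 370 CPM in WT and 320, 284 and 443 CPM in KO, with overlapping ranges. Rpl29 was taken up after its values had been seen.

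Of the counts of Rpl29 and Gm13841 together, the copy made up 24.5% and 27.5% in KO replicates 1 and 2, 1.93% in KO replicate 3 and 0 in WT. The summed log2 fold change was −0.41 (SE 0.19) and −0.67 without KO replicate 3, so the KO libraries with most of the copy also had the lowest sums. Among the other copies, Gm6344, Gm14036, Gm10709 and Gm15454, which share more words with Gm13841 than Rpl29 does, had between 0 and 5.27 counts in any library.

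**Figure D3:**
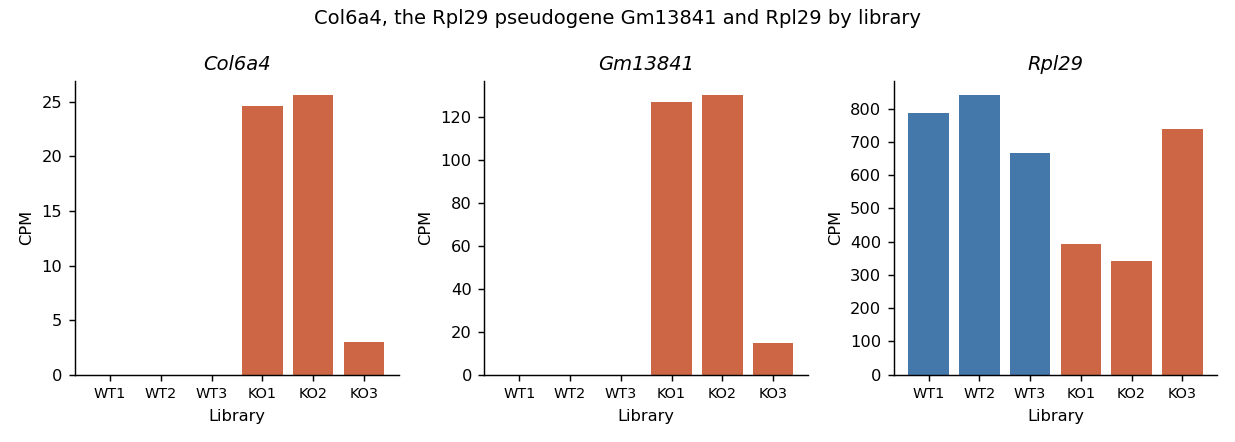
CPM of Col6a4, Gm13841 and Rpl29 in each library (blue WT, orange KO), with bars from 0 and a separate linear axis per gene. Col6a4 and Gm13841 are high in KO replicates 1 and 2, low in KO replicate 3 and 0 in WT, and Rpl29 is lowest in KO replicates 1 and 2.

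Gm8730, the Rplp0 copy, was carried by a single KO library. It had 0, 1.001 and 1.001 counts in WT replicates 1 to 3 and 55.1, 10.016 and 3570 in KO replicates 1 to 3, or 6.45, 1.22 and 406 CPM in KO. The genotypes did not overlap, and the highest KO library was 334 times the lowest. The pooled ratio of KO to WT was 1835, a description that leaves out the spread between libraries. Against the same WT libraries, KO replicate 3 alone gave 5240, KO replicate 1 gave 83.1, and KO replicate 2 gave 15.7. The WT counts are under the floor of 3 counts per library, so the size of these ratios is uncertain. Without KO replicate 3, the KO mean exceeded the WT mean by 3.75 CPM, in place of 138 CPM with all libraries.

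Other copies of Rplp0 had their highest counts in the same library. Gm9625 had WT counts of 2.009, 1.002 and 2.011 and KO counts of 7.154, 0 and 451.158, and Gm14165 had 32.229 counts in KO replicate 3 and 0 in the other libraries. Rplp0 itself had 3260, 3263 and 2966 CPM in WT and 2696, 2301 and 2781 CPM in KO. All KO values of Rplp0 were below all WT values, as for 5.65% of the tested genes, and its log2 fold change was −0.31 (SE 0.11). No p is given, because most words of Gm8730, which was chosen on this contrast, occur in Rplp0. Gm8730 made up 12.7% of the counts of Rplp0 and Gm8730 together in KO replicate 3, 0.239% in KO replicate 1 and 0.0529% in KO replicate 2. The sum had a log2 fold change of −0.23 (SE 0.14). It overlapped between genotypes, with 3187 CPM in KO replicate 3 inside the WT range of 2966 to 3263 CPM.

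**Figure D4:**
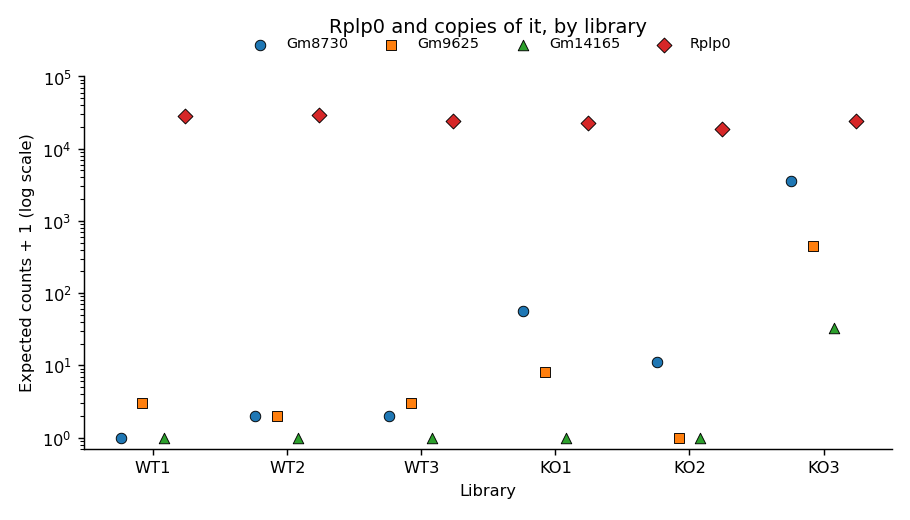
Expected counts plus 1 of Rplp0 and its copies Gm8730, Gm9625 and Gm14165 in each library, on a log axis on which a count of 0 sits at 1. Rplp0 lies between 18940 and 28968 counts everywhere, and the copies rise above 30 counts together in KO replicate 3 only, with Gm8730 at 55.076 in KO replicate 1.

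Gm8730 and the pair of Col6a4 and Gm13841 split the KO libraries in opposite ways. KO replicate 3 had the lowest Col6a4 and Gm13841 of the KO libraries and the highest Gm8730. KO replicate 3 also had the lowest B cell marker sum of its genotype, 991 CPM against 2097 and 2346 CPM in KO replicates 1 and 2, and the highest CD8 T cell marker sum, 2692 against 1881 and 1360 CPM. WT replicate 1, with sums of 1985 CPM for B cells and 2029 CPM for CD8 T cells, had 0 counts of Col6a4, Gm13841 and Gm8730. The part of these cells in the 3 loci was not tested.

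Gm43305 was lower in KO but far from 0. It had WT counts of 2187, 1059.2 and 1753 and KO counts of 430, 109 and 315, or 249, 119 and 215 CPM against 50.3, 13.2 and 35.8 CPM. The ranges did not overlap, and the lowest library of each genotype was replicate 2. The WT mean of 194 ± 67.2 CPM (SD, n = 3) was 5.87 times the KO mean of 33.1 ± 18.7 CPM (SD, n = 3). Its neighbour Trac had 293, 394 and 361 CPM in WT and 274, 210 and 361 CPM in KO, with overlapping ranges and a log2 fold change of −0.33 (SE 0.20; edgeR quasi-likelihood, Benjamini-Hochberg adjusted p = 0.818).

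Fmnl2 was higher in KO and present in both genotypes. It had WT counts of 150, 123 and 147 and KO counts of 313, 268 and 280, or 17.1, 13.9 and 18.1 CPM against 36.6, 32.6 and 31.8 CPM. The lowest KO library stood above the highest WT library, and the spread within each genotype was small beside the gap. The KO mean was 2.06 times the WT mean, and all KO libraries lay above all WT libraries, as for 5.83% of the tested genes.

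Trpm2, a calcium-permeable channel of phagocytes that opens under oxidative stress, was also higher in KO. It had WT counts of 417, 393 and 412 and KO counts of 800, 866 and 605, or 47.4, 44.3 and 50.6 CPM against 93.7, 105 and 68.8 CPM. The ranges did not overlap, KO replicate 3 was the lowest of its genotype, and the KO mean was 1.88 times the WT mean. Neutrophil marker sums were 992, 281 and 234 CPM in WT and 1054, 1269 and 397 CPM in KO, and monocyte and macrophage sums were 1639, 1000 and 1100 against 1666, 1808 and 1053 CPM. The summed markers of CD8a+ dendritic cells were higher in every KO library (472 to 582 CPM) than in any WT library (366 to 452 CPM), although none of the 5 markers did so alone. Most of this sum was Irf8 (mean 306 CPM) and Itgax (mean 118 CPM). Xcr1 and Clec9a lay inside their WT ranges in KO replicate 2 (16.6 and 17.4 CPM) and above them in KO replicates 1 and 3. The part of these cells in the levels of Trpm2 and Fmnl2 was not tested.

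Relatives of the loci by function were read from the same fit. Of 55 listed genes, 33 had enough counts, and none passed the adjusted threshold in edgeR's quasi-likelihood test in either direction, and none passed in DESeq2 or limma voom. At an unadjusted p under 0.05 there were 4 of the 33, beside 814 of all 13024 genes (6.25%). Their median log2 fold change was −0.02, beside 0.003 over all 13024 genes. The polypeptide GalNAc transferases, which share their reaction with Galnt2, had a median of −0.06 over 9 tested genes, and Galnt6, with the highest level, had −0.20 (SE 0.15). They held 3 of the 4 genes at an unadjusted p under 0.05, with Galnt3 (1.10) and Galnt11 (0.26) higher in KO and Galnt10 (−0.35) lower. Partners and substrates of USP10 had a median of 0.01 over 7 genes, with Caprin1, a stress granule protein, at 0.01 (SE 0.10).

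The formins other than Fmnl2 had a median log2 fold change of 0.08 over 11 tested genes. Fmnl1, the leukocyte formin with the highest level among them, had −0.02 (SE 0.10). Among the TRPM channels other than Trpm2, 3 were tested, with a median of −0.10, and Trpm7, a channel fused to a kinase, had −0.03 (SE 0.11). The ribosomal stalk genes Rplp0, Rplp1 and Rplp2 had a median of −0.24, with none called. Among them, Rplp0 shares sequence with Gm8730, which was chosen on this contrast.

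**Figure D5:**
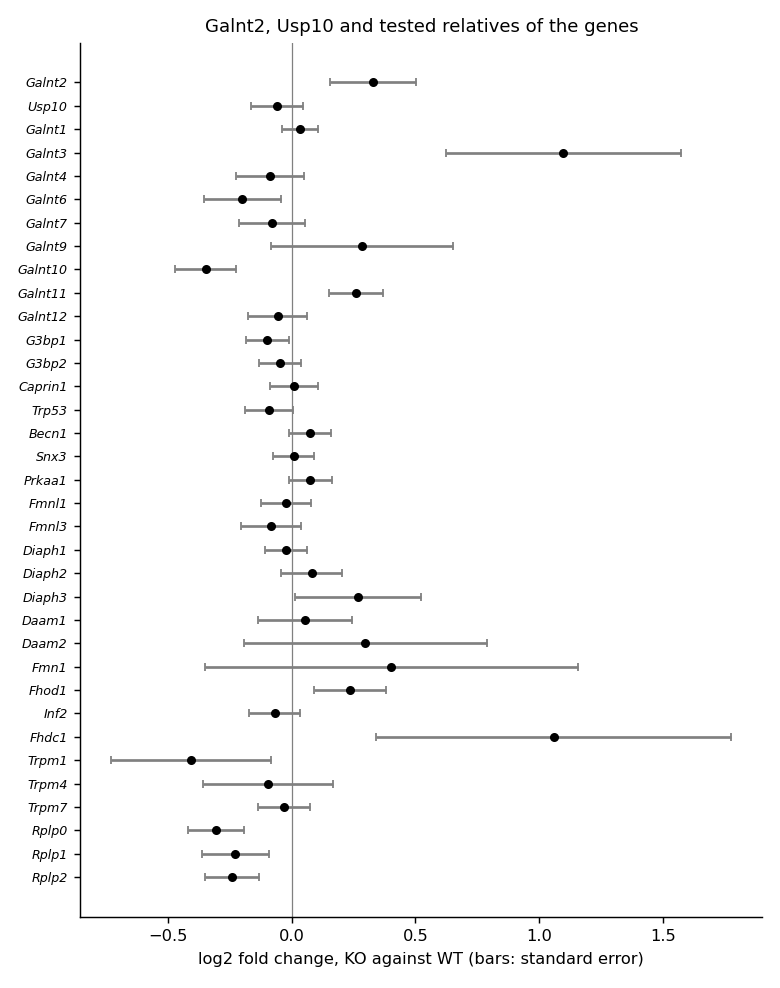
Log2 fold change in KO against WT with its standard error for Galnt2, Usp10 and the 33 tested relatives, in the order of the lists (GalNAc transferases, USP10 partners, formins, TRPM channels, ribosomal stalk). Most points lie within 0.5 of 0, the wide bars belong to genes of low level such as Fhdc1 and Fmn1, and none of the relatives passed the adjusted threshold.

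Genes within 1 Mb of each locus were counted as well. No gene passed the adjusted threshold in edgeR's quasi-likelihood test among the 28 tested neighbours of Col6a4 (3 at an unadjusted p under 0.05), the 28 of Gm13841 (4), the 54 of Gm43305 (4), the 10 of Fmnl2 (0), the 24 of Trpm2 (0), the 31 of Galnt2 (1), the 19 of Usp10 (3) or the 78 of Gm20388 (7), whose region covers those of its hosts. Over all tested genes, 6.25% were at an unadjusted p under 0.05. DESeq2 and limma voom called none of these neighbours either. The neighbours' medians lay between −0.11 and 0.03 on the log2 scale. Gm8730 had no tested neighbour.

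The seeds of the deleted microRNAs were searched for in the loci, because the KO lacks them. Mature sequences from RefSeq (GRCm38.p6) are shown with bases 2 to 8 in capitals:
mmu-miR-144-3p: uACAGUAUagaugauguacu
mmu-miR-144-5p: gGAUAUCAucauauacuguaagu
mmu-miR-451a: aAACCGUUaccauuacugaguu
On the transcript strand only, the reverse complement of each seed was searched. For miR-144-3p this was ATACTGT, for miR-144-5p it was TGATATC, and for miR-451a it was AACGGTT. Of the 6 loci with an annotated 3′-UTR (Gm20388, Galnt2, Usp10, Col6a4, Fmnl2 and Trpm2), 0 held ATACTGT in it, beside 13.4% of 20660 genes with one. Gm20388 and Galnt2 share their last exon, so the same 3′-UTR sequence is counted for both. None held AACGGTT, beside 2.24%, and 1 held TGATATC, beside 7.43%.

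The match was in Fmnl2, at position 1722 of its longest 3′-UTR of 1964 bases, shown with the matching letters in capitals:
Fmnl2: taatttgatcaTGATATCagaaaaatatg
A match of 7 letters is a description and not a site of action, and its absence says only that these letters are not in the annotated 3′-UTR. Anywhere in a transcript, 3 of the 9 loci (Fmnl2, Usp10 and Gm43305) held TGATATC, beside 9.95% of all genes, with no account taken of transcript length.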

How the data were processed

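RNA-seq of 3 WT and 3 KO libraries was used. The values the authors deposited for each Ensembl gene are expected counts (the unit was read from the values), and the submitters' processing notes name GRCm38 and mm10; the aligner, counting program, annotation and use of strand are not given in the sources used here. Counts were rounded and compared in R 4.3.3 with edgeR 4.0.16 (TMM, filterByExpr, quasi-likelihood test, Benjamini-Hochberg over 13024 genes, threshold 0.05). All 9 loci passed the filter. Named beside them were some of the genes that overlap them or share 31-base words, other on or off genes, and the highest gene of each list with tested genes. The loci and lists were chosen with earlier results of these data known. Alternatives were DESeq2 1.42.0, voom of limma 3.58.1, upper-quartile scaling, other filters, the replicate number as a block and each library left out. The procedure was tested on simulated counts. Positions and transcripts came from GENCODE M21, which held 98.75% of the gene identifiers. Libraries of a genotype differed beyond sampling noise (chi-square per degree of freedom 6.17 to 21.8). Counts of overlapping genes and near-identical copies are uncertain, because the counting could divide their reads.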

Additional observations from a re-analysis of the deposited data

How the results depend on the processing

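The number of genes passing the adjusted threshold was 4 in edgeR, 56 in DESeq2, 12 without a filter on low counts and 9 with the replicate block, and between 2 and 94 with a library left out, the highest without KO replicate 3. Rows with the on or off pattern numbered 6, or 3 when 0 counts were required in the off genotype, 2 when at least 30 were required in the on genotype, and 6 to 13 with a library left out. Usp10 passed the threshold in none of the 12 alternatives. The log2 fold change of Galnt2 was 0.14 to 0.48 with a library left out, and that of Usp10 was −0.15 to 0.0095, reversed only without WT replicate 2 (0.0095). With a library left out, the log2 fold change was −0.15 to 0.050 for Gm20388 and Galnt2 summed, −0.15 to 0.017 with Usp10 added, −0.67 to −0.28 for Gm13841 and Rpl29 summed, and −0.39 to −0.12 for Gm8730 and Rplp0 summed. The relatives had 0 calls throughout. The last pair of sums and the relatives were put through the alternatives after the data had been seen. For the 7 loci chosen on this contrast the genotypes do not overlap, so leaving out a library could not turn their direction. In mean CPM, Galnt2 kept its direction in 7 of 7 alternatives and Usp10 in 6 of 7. Same-numbered WT and KO libraries did not deviate together (r from −0.225 to 0.135), so the numbers were not taken as pairs, and the replicate block changed no call for Usp10 (log2 fold change −0.05) and gave 0.36 for Galnt2. The cause of these shifts was not tested. Depth limits loci near 0, where 3 counts are at most 0.368 CPM.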
